A study of Mus musculus with 17 samples.

Results

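A set of 10 genes that mark vascular endothelium or encode receptors of blood vessel growth were followed in mouse skin after injury, with and without ionizing radiation: Pecam1, Cdh5, Kdr, Flt1, Flt4, Tek, Tie1, Vwf, Emcn and Esam. They were taken by symbol from a deposited table of 34140 genes, in which all 10 were found, and all 10 passed the filter for expression used below. The 17 libraries came from skin of C57/BL6j mice and were labelled control at day 0 (2 libraries), day 3 (2), day 6 (2) and day 9 (3), or irradiated at day 3 (3), day 6 (2) and day 9 (3), the days being counted from injury. No irradiated library is labelled day 0, so the effect of radiation before injury was not analysed here. The labels give neither a radiation dose nor the kind of injury, and they do not say that the libraries of a group came from separate animals, so p-values measure only the spread between these libraries.

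Endothelial cells line all blood and lymph vessels. Vascular endothelial growth factors act through 3 receptor tyrosine kinases: Kdr carries most of the growth signal, Flt1 binds the same main ligand tightly with weak kinase activity and can act as a decoy, and Flt4 is the receptor of the lymphatic growth factors. Tek is the receptor of the angiopoietins, which set whether a vessel is stable or open to remodelling, and Tie1 is its partner receptor, long studied as an orphan. Pecam1, Cdh5 and Esam are adhesion proteins of the junctions between endothelial cells, Emcn is a surface glycoprotein mostly of capillaries and veins, and Vwf is the clotting protein that endothelium stores and that platelets also carry. New vessels grow into the wound bed as skin heals, and blood vessels are among the tissues that radiation injures.

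Levels are given as FPKM, fragments assigned to a gene, scaled by the gene's length and by the depth of the library. The libraries held 25440773 to 30797409 assigned fragments, and the 10 genes had from 157 (Flt4) to 8183 (Pecam1) fragments in a library. Over all libraries Cdh5 was the most abundant of the 10, with a mean of 33.4 FPKM, followed by Pecam1 with 30.3, Esam with 14.6, Tie1 with 12.3, Tek with 7.08, Vwf with 5.46, Emcn with 5.14, Kdr with 5.02, Flt1 with 3.57 and Flt4 with 1.95. Each gene's range overlapped those of its neighbours in this order, as for Cdh5 (18.5 to 62.1) and Pecam1 (18.7 to 46.3). Some steps still held within each of the 17 libraries, as Pecam1 above Esam and Flt1 above Flt4. In whole skin, fewer endothelial cells and less RNA per endothelial cell cannot be told apart.

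The genes lie on separate chromosomes or far apart. In GRCm38/mm10 coordinates, Pecam1 (ENSMUSG00000020717) spans chromosome 11 from 106654217 to 106750628 on the minus strand and Flt4 (ENSMUSG00000020357) chromosome 11 from 49609263 to 49652739 on the plus strand. Kdr (ENSMUSG00000062960) spans chromosome 5 from 75932827 to 75978458 and Flt1 (ENSMUSG00000029648) chromosome 5 from 147561604 to 147726011, both on the minus strand. Tek (ENSMUSG00000006386) spans chromosome 4 from 94739289 to 94874976 on the plus strand and Tie1 (ENSMUSG00000033191) chromosome 4 from 118471191 to 118490061 on the minus strand. Of the others, all on the plus strand, Cdh5 (ENSMUSG00000031871) spans chromosome 8 from 104101625 to 104144511, Vwf (ENSMUSG00000001930) chromosome 6 from 125546774 to 125686679, Emcn (ENSMUSG00000054690) chromosome 3 from 137341067 to 137432185 and Esam (ENSMUSG00000001946) chromosome 9 from 37528078 to 37538319.

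Promoter sequence is shown for 4 genes whose levels went different ways in these libraries: Emcn, which was higher at each later control day than at day 0, Tek, which was not higher on any, and Kdr and Flt1, whose ratio differed between the arms. The sequences are the bases just before the gene start from the RefSeq promoter table (GRCm38.p6), which held 6 of the 10 genes. They are written 5′ to 3′ on the gene's strand, and capitals mark GGAA or its complement TTCC, the core that ETS factors, a family with several endothelial members, recognise. The windows are chr3:137340828-137341066 (plus strand) for Emcn, chr4:94739039-94739288 (plus) for Tek, chr5:75978459-75978705 (minus) for Kdr and chr5:147726012-147726261 (minus) for Flt1.
Emcn: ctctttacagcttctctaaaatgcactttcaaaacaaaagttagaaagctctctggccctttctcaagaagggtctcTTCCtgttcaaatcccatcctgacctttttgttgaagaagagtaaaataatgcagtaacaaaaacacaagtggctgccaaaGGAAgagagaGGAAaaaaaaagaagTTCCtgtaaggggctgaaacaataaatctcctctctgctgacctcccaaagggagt
Tek: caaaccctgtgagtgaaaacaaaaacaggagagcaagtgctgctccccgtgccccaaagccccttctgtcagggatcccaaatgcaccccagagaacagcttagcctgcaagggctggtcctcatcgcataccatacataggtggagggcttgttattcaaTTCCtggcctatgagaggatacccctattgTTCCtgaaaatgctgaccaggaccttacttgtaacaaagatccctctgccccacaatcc
Kdr: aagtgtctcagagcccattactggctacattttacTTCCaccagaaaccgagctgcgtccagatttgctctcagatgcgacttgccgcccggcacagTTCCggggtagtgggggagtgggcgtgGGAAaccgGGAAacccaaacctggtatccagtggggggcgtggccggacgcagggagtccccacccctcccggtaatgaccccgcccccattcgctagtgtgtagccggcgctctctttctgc
Flt1: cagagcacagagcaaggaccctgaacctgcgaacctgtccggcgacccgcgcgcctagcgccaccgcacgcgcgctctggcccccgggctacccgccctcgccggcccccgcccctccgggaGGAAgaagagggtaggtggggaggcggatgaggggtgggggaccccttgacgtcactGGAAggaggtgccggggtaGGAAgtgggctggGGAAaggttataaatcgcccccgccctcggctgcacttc

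On either strand the core GGAA was found 4 times in the Emcn, Kdr and Flt1 windows and 2 times in the Tek window, and 93.4% of the 32851 promoter windows of 250 bases in the table held it at least once. The longer form AGGAAG, which contains the core, was found 2 times each before Emcn and Flt1 and 0 times before Tek and Kdr, against 29.5% of all windows. The GC box GGGCGG was found 2 times before Kdr and 3 times before Flt1 and in neither of the other windows, against 32.7% of all windows, and TATAAA once, before Flt1, against 12.4%. These matches are letters in a window and were not measured as binding sites.

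**Figure D1:**
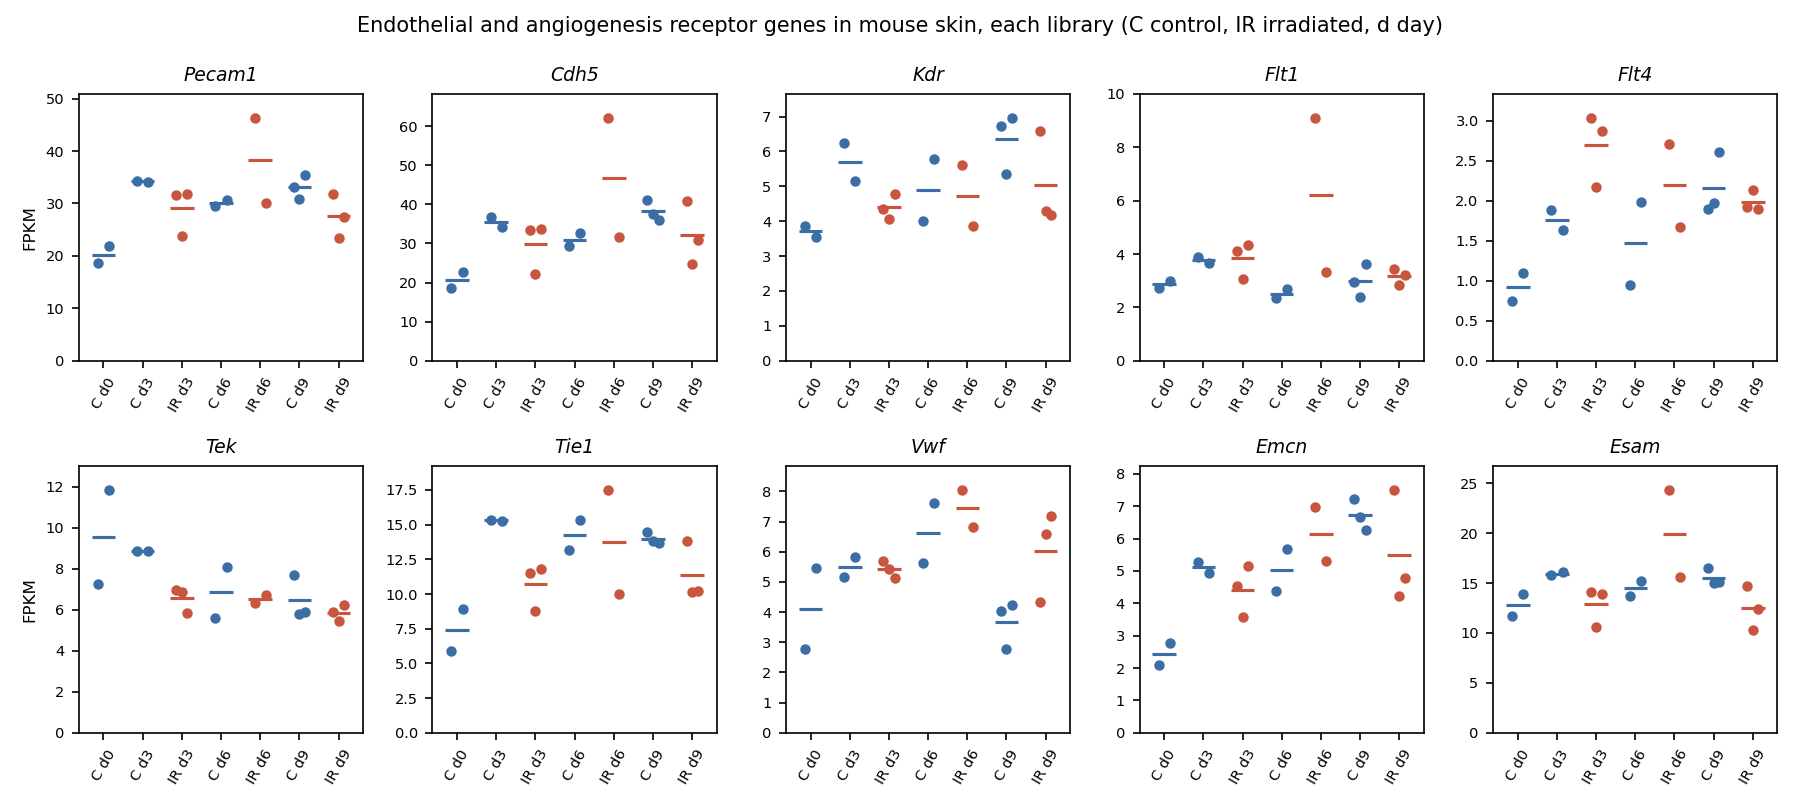
FPKM of the 10 genes (vertical axes, linear, from 0) in each of the 17 libraries, by group (C control, blue; IR irradiated, red; d day). Points are libraries and bars are group means. Both control day-0 points are below all others for Pecam1, Kdr and Emcn, and 1 of the 2 irradiated day-6 libraries stands above the other, as for Cdh5 (62.1 against 31.6).

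Facts of the whole series bear on the comparisons as follows. Endothelial markers were present in each library, and the libraries also held keratinocyte, fibroblast and skeletal muscle RNA. The 2 control day-0 libraries had 21.7% and 31.8% of their summed FPKM in mitochondrial genes, against 8.33% to 12.6% in the other libraries, and their 6 skeletal muscle markers summed to 16457 and 19186 FPKM, against 1155 to 4127. Red cell genes were low in irradiated skin, with the 5 of them summing to 2.03 to 8.34 FPKM at day 3 against 155.5 to 209.7 in control skin. Irradiated day 6, replicate 1, stood apart for the genes described here: its mean over the 10 of centred log2(FPKM + 1) was 0.53, and the next highest library was at 0.16.

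The first question is whether irradiated skin differed from control skin of the same day in these genes. No member passed on any day. The test was limma's moderated test (limma-trend) on log2(FPKM + 1) with 1 mean per group, adjusted by Benjamini and Hochberg over 15271 genes, with an adjusted p under 0.05 as the threshold. Of the 10 genes, 0 passed at day 3, where 1.85% of all tested genes did, 0 at day 6 (0.275% of all), 0 at day 9 (5.38% of all) and 0 averaged over the 3 days (6.93% of all). At an unadjusted p under 0.05 there were 2 at day 3, 1 each at days 6 and 9 and 3 in the average. Shares of all tested genes at that unadjusted level are not given here for any comparison. With limma-voom on whole fragments recovered from the FPKM values, 0 passed in each of these comparisons too.

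At day 3 the irradiated libraries were lower for most of the adhesion and receptor genes. All 3 irradiated libraries lay below both controls for 6 genes (Pecam1, Cdh5, Kdr, Tek, Tie1 and Esam), where 25.1% of all tested genes did so, and the members' libraries share their vessels, so these are not 6 separate observations. Tie1 had the lowest difference: 11.5, 8.78 and 11.8 FPKM in irradiated replicates 1, 2 and 3 against 15.4 and 15.2 in the controls, a log2 fold change of -0.49 (95% interval -0.96 to -0.02, adjusted p 0.414, limma). The arms did not overlap for Tie1, yet the difference did not pass. Pecam1 was 31.7, 23.9 and 31.8 against 34.3 and 34.1 FPKM. Replicate 2 was the lowest irradiated library for 8 of the members, and for Pecam1 the others lay just under the controls. The median log2 fold change of the 10 was -0.25, beside -0.04 over all genes tested.

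Flt4 went the other way at day 3. It was 3.04, 2.17 and 2.88 FPKM in irradiated skin against 1.89 and 1.63 in control skin (log2 fold change 0.41, interval 0.00 to 0.83, adjusted p 0.437, limma). It was the only member with all irradiated libraries above the controls that day, where 15.9% of all tested genes were. Flt4 marks lymphatic endothelium in adult skin, and the 7 lymphatic markers together summed to 179.1 to 195.5 FPKM in irradiated and 110.1 to 113.9 in control skin at day 3. Lyve1, a lymphatic surface receptor also found on tissue macrophages, was 66.6, 35.6 and 37.3 against 14.1 and 13.1 FPKM, and Pdpn, also made outside lymphatics, was 81.0, 89.4 and 93.7 against 66.1 and 54.4. Prox1, the transcription factor that defines lymphatic endothelium, was 0.530 to 0.623 against 0.458 to 0.641 and overlapped, as did Foxc2 and Ccl21a, while Mmrn1, a matrix protein of lymphatic endothelium, was at least 4.22 in irradiated and at most 2.18 in control libraries. On day 6 the 7 markers summed to 97.8 and 262.1 with and 73.3 and 109.4 without radiation, and on day 9 the irradiated range of 113.8 to 120.1 lay within the control range of 89.5 to 149.2. None of the 6 lymphatic markers tested passed at day 3, day 6 or day 9, and their part in the Flt4 values was not tested.

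At day 6 the 2 irradiated libraries disagreed. Flt1 was 9.11 FPKM in replicate 1 and 3.34 in replicate 3, against 2.34 and 2.68 in the controls, which gave a log2 fold change of 0.92 (interval 0.30 to 1.54, adjusted p 0.187, limma). Cdh5 was 62.1 and 31.6 against 29.4 and 32.6, and Esam 24.3 and 15.6 against 13.7 and 15.2. Flt1 and Esam were higher in both irradiated libraries, where 19.8% of all tested genes were, and the other 8 overlapped. The whole day-6 median of 0.28 (0.02 over all genes tested) came with replicate 1: without replicate 3 of irradiated day 6, Flt1 passed at 1.53 (adjusted p 0.00212, limma with the lone sample taken to vary like the other groups), and without replicate 1 the Flt1 difference was 0.31 (adjusted p 0.692). Selp and Sele, selectins of activated vessels, were also high in replicate 1, at 27.1 and 13.5 FPKM against 2.62 and 1.66 in replicate 3.

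At day 9 the junction genes, Kdr, Tie1 and Emcn were lower on average in irradiated skin and Vwf higher. Vwf was 4.33, 6.58 and 7.20 FPKM in irradiated skin against 4.03, 2.78 and 4.23 in the controls, with no overlap (16.8% of all tested genes were higher with no overlap), which gave a log2 fold change of 0.58 (interval 0.12 to 1.03, adjusted p 0.124, limma). Esam was 14.7, 10.3 and 12.5 against 16.5, 15.0 and 15.1 and was the only member lower with no overlap (17.2% of all). For Pecam1, Cdh5, Kdr, Tie1 and Emcn irradiated replicate 1 lay near the controls and replicates 2 and 3 below all of them: Kdr was 6.59, 4.30 and 4.19 against 6.72, 5.35 and 6.96 FPKM, and Emcn 7.51, 4.22 and 4.80 against 7.21, 6.66 and 6.28. Flt1, Flt4 and Tek overlapped the controls without that order. The median of the 10 was -0.27, beside 0.02 over all genes tested. With array quality weights, which count libraries by how well they fit their group, 7 members passed at day 9, with 1 higher (Vwf, 0.67) and 6 lower (Pecam1, Cdh5, Kdr, Tie1, Emcn and Esam). The share of all tested genes that passed with these weights is not given here, so this count has no background beside it.

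Genes of other cell types also differed between the arms at day 9. The 8 fibroblast markers summed to 3676 to 6444 FPKM in irradiated and 7466 to 9251 in control skin, with 0 of 8 passing and a median log2 fold change of -0.81. The 6 adipocyte markers summed to 133.1 to 317.7 against 71.5 to 115.9, and 2 of them rose, Adipoq, a hormone of fat cells, by 2.53 (adjusted p 0.0179, limma) and Cidec, a lipid droplet protein, by 1.73 (adjusted p 0.0487). The 8 keratinocyte markers summed to 12498 to 14069 against 6346 to 11823, and 1 rose, the desmosome gene Dsg3, by 1.37 (adjusted p 0.0204). With 1 library left out these calls were lost in 3, 5 and 2 of 6 fits. The part of these cell types in the day-9 values of the members was not tested.

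Vwf is also carried by platelets, so platelet genes are given beside it. The megakaryocyte integrin gene Itga2b stood at 0.890 to 1.26 FPKM in irradiated and 1.24 to 1.41 in control skin at day 9, Gp9 was at most 0.284 in any library and Gp6 was listed at 0 in some. The chemokine gene Pf4, made by platelets and by some macrophages, was 193.0, 104.3 and 98.1 against 120.2, 107.5 and 129.9 FPKM at day 9. In irradiated replicates 2 and 3, where Vwf was highest, Itga2b and Pf4 lay within or below the range of the controls. Ppbp and Gp1bb, also of the platelet list, lay below the day-9 controls in these libraries. Gp1ba, at most 0.665 FPKM in any library, went the other way, at 0.375 and 0.323 against 0.106 to 0.274 in the controls. The part of platelets in the Vwf values was not tested.

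**Figure D2:**
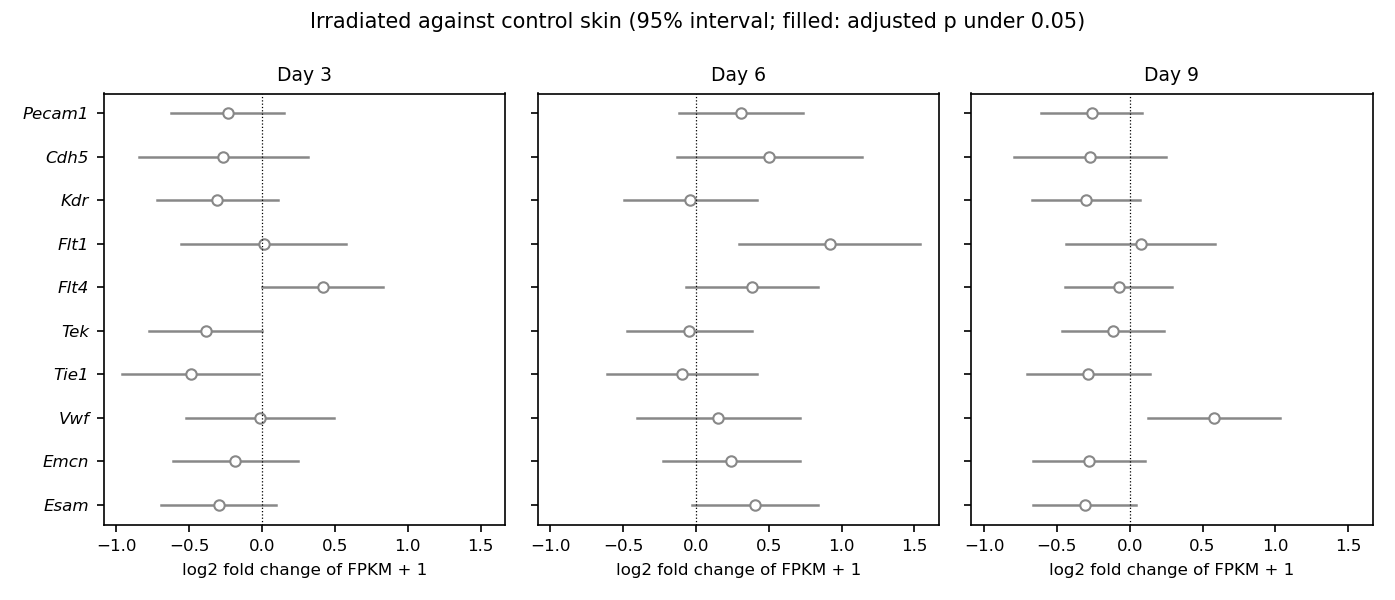
Log2 fold change of FPKM + 1, irradiated against control (horizontal axis), for the 10 genes at days 3, 6 and 9, with 95% intervals from limma. All markers are open because no adjusted p was under 0.05; Tie1 at day 3 (-0.49), Flt1 at day 6 (0.92) and Vwf at day 9 (0.58) lay farthest from 0 on their days.

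Averaged over the 3 days, the receptors of one family lay on both sides of 0. Flt1 stood at 0.33 (interval 0.01 to 0.66, adjusted p 0.211, limma) and Flt4 at 0.24 (0.00 to 0.48, adjusted p 0.215), while Kdr stood at -0.22 (-0.46 to 0.02, adjusted p 0.270). Tie1 stood at -0.29 (-0.56 to -0.02, adjusted p 0.190) and Tek at -0.18 (-0.41 to 0.04). Vwf, which is not a receptor, stood at 0.24 (-0.05 to 0.53, adjusted p 0.322, limma). The other 4 members lay nearer 0, with Cdh5 at -0.01 (-0.35 to 0.32), Pecam1 at -0.06 (-0.29 to 0.16), Esam at -0.07 (-0.29 to 0.16) and Emcn at -0.07 (-0.32 to 0.17). These intervals leave room for changes of either sign. No member's irradiation effect changed between day 3 and day 9 by the interaction test, nor did that of any of the 15271 genes. At an unadjusted p under 0.05 there were 0 members, and limma-voom called 0. The largest difference was that of Vwf, 0.59 higher at day 9 (interval -0.09 to 1.28, adjusted p 0.409, limma).

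Because Kdr and the other 2 growth factor receptors differed in sign, they were compared within each library, where the scaling of the library cancels. The amount of vessel cancels only as far as both genes come from the same cells. Flt4 marks lymphatic endothelium and Flt1 is also made by monocytes and macrophages, so the ratios can also follow the mix of cells. A set of 12 ratios between members was computed after their values were seen, so the tests on them are not independent evidence. The ratio of Flt1 to Kdr was 0.621 and 0.713 in control and 0.947, 0.754 and 0.906 in irradiated skin at day 3. At day 6 it was 0.585 and 0.463 against 1.63 and 0.863, and at day 9 0.439, 0.450 and 0.520 against 0.523, 0.664 and 0.771. Every irradiated library was above every control library of its day, although at day 9 the nearest pair nearly touched. Among the 15270 other tested genes, 3.69% had a ratio to Kdr that did so on all 3 days. The mean log2 difference was 0.68, with an exact two-sided permutation p of 0.0025 over the 1200 rearrangements within days (smallest possible p 0.000833; 0.02 after adjustment over the 12 ratios). Without irradiated day 6, replicate 1, the difference was 0.52 (exact permutation p 0.00167), and leaving out any other library gave 0.62 to 0.83.

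The ratio of Flt4 to Kdr also differed between the arms. At day 3 it was 0.303 and 0.317 in control skin against 0.699, 0.534 and 0.603 in irradiated skin, and at day 6 0.238 and 0.344 against 0.484 and 0.433. At day 9 it was 0.281, 0.370 and 0.375 against 0.291, 0.497 and 0.452, where irradiated replicate 1 fell among the controls. So the arms were apart at days 3 and 6, as they were for 10.2% of the ratios of other genes to Kdr, and overlapped at day 9. The mean log2 difference was 0.63 (exact two-sided permutation p 0.005, 0.02 after adjustment over the 12 ratios), and it stayed between 0.54 and 0.72 with any 1 library left out. Since both ratios share Kdr, they are not separate observations.

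Set against Cdh5 as a measure of endothelium, Flt1 was higher in irradiated skin by 0.43 log2 (exact two-sided permutation p 0.00417, 0.02 adjusted over the 12 ratios) while Kdr stood at -0.25 (exact permutation p 0.115). Flt4 to Cdh5 stood at 0.39 (exact permutation p 0.0825) and Tie1 to Cdh5 at -0.30 (exact permutation p 0.0217, 0.065 after adjustment). Neither passed after adjustment. The ratio of Tie1 to Tek did not separate the arms (-0.11, exact permutation p 0.542).

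Flt1 is also made by monocytes and macrophages, and the summed leukocyte markers overlapped between the arms on each day. At day 3 the sum of 8 leukocyte markers ranged from 937 to 2341 FPKM in irradiated libraries and from 1062 to 1358 in controls. It was 1071 and 1770 against 847 and 1288 on day 6, and the irradiated range of 1450 to 1560 lay within the control range of 1408 to 1963 on day 9. Of the 8, only Cd68, a macrophage lysosome protein, rose in the average over days (0.91, adjusted p 0.0363, limma), a call that was lost in 11 of the 15 fits that each left out 1 library. On day 3 Cd68 was 196.4, 240.9 and 203.1 FPKM with radiation and 118.8 and 92.0 without. Lyz2, from 511 to 1767 FPKM after day 0, was the largest term of each sum, and single markers went different ways. Cd68 and Fcgr3 lay above all same-day controls on days 3, 6 and 9. Adgre1 did so on days 6 and 9, Itgam on day 6 and Mrc1 on day 9. Csf1r overlapped on each day, Ptprc lay below the controls on day 6 and Lyz2 on day 9. Of all tested genes, 15.9%, 19.8% and 16.8% were higher with no overlap on days 3, 6 and 9, and 17.2% were lower on day 9. The shares for all 3 days together and for lower on day 6 are not given here. On day 9 Fcgr3 was 102.9, 87.6 and 104.3 FPKM with radiation and 54.9, 45.5 and 80.8 without. The part of leukocytes in the Flt1 ratios was not tested.

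**Figure D3:**
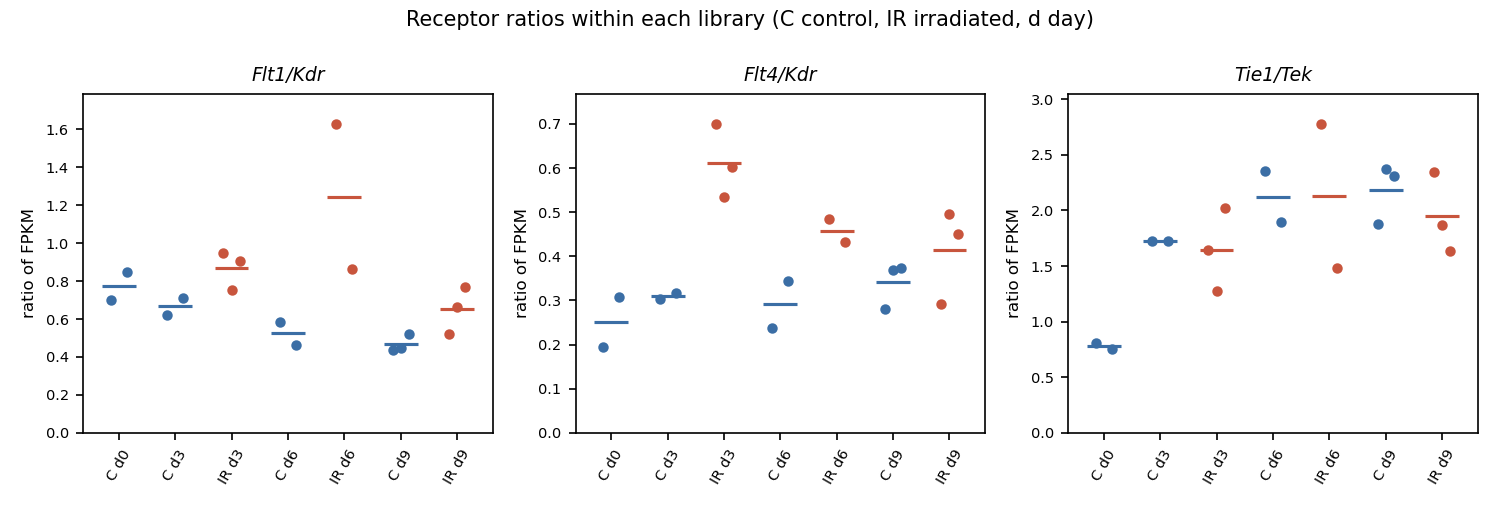
Ratio of FPKM within each library (vertical axes, linear, from 0) for Flt1 to Kdr, Flt4 to Kdr and Tie1 to Tek, by group (C control, blue; IR irradiated, red; d day; bars are means). Flt1 to Kdr is higher in each irradiated library than in the controls of its day, and Tie1 to Tek is below 1 only in the 2 day-0 libraries (0.755 and 0.811).

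Ligands and co-receptors of these receptors were compared in the same fit. None of 7 genes of the growth factor list passed in irradiated against control skin at any day or in the average. Vegfa, the main ligand of Kdr and Flt1, was 35.4, 28.6 and 30.0 FPKM in irradiated and 15.5, 13.3 and 24.8 in control skin at day 9. The arms did not overlap that day, where 16.8% of all tested genes were higher with no overlap. In the average Vegfa stood at 0.52 (SE 0.17, adjusted p 0.0868, limma). Without control day 9, replicate 3, it was 0.60 with an adjusted p of 0.0325 (limma). That was the only 1 of 15 fits without 1 library in which Vegfa passed, and its difference ranged from 0.40 to 0.64 over them. Pgf, a ligand of Flt1 alone, stood at 0.48 (adjusted p 0.210), Nrp1 at 0.22 (adjusted p 0.369) and Nrp2, the co-receptor of lymphatic vessels, at -0.05 (adjusted p 0.862). Of the ligands of Flt4, Vegfc stood at 0.18 (adjusted p 0.558, limma) and Vegfd, named after its values were seen, at 0.44 (adjusted p 0.106). Vegfd passed in only 1 of 15 fits without 1 library (adjusted p 0.0355 without irradiated day 9, replicate 2, limma). Its difference ranged from 0.40 to 0.53 over those fits. At day 3 Vegfd was 15.5, 20.8 and 15.4 FPKM in irradiated and 10.6 and 11.6 in control skin, with no overlap (15.9% of all tested genes were higher with no overlap).

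Of 5 genes of the angiopoietin list, 1 passed in the average: Svep1, a matrix protein that binds Tie1, rose by 0.59 (adjusted p 0.0447, limma), a call lost in 14 of 15 fits without 1 library (highest adjusted p 0.124). Angpt1, the Tek agonist, stood at 0.21 (adjusted p 0.395). Angpt2, its context-dependent antagonist that endothelium releases on activation, was 7.59, 5.92 and 10.1 against 4.91 and 4.72 FPKM at day 3 and 14.9 and 6.76 against 3.34 and 4.66 at day 6. At day 9 it was 8.59, 4.87 and 5.19 against 8.44, 10.2 and 9.92, so that it lay above the controls at days 3 and 6 and not at day 9. None of these differences passed (0.39 in the average, adjusted p 0.187, limma). Of all tested genes, 15.9% were higher with no overlap at day 3 and 19.8% at day 6.

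Other genes of endothelium split in the average over days: of 25 such genes, 1 rose and 4 fell. Mmrn2, an endothelial matrix glycoprotein, rose by 0.59 (SE 0.11, adjusted p 0.00584, limma), and it was 16.9, 13.6 and 15.3 FPKM in irradiated against 10.9 and 10.9 in control skin at day 3. Clec14a, a membrane lectin that binds Mmrn2, fell by 0.57 (SE 0.10, adjusted p 0.00441) and was 2.92, 2.99 and 3.01 against 5.02 and 4.73 FPKM at day 3. The pair of binding partners went opposite ways. Myct1, an endothelial membrane protein, fell by 0.48 (SE 0.08, adjusted p 0.00441). These 3 calls held with each library left out. Ushbp1 fell by 0.29 (adjusted p 0.0224) and Arhgef15, named after its value was seen, by 0.27 (adjusted p 0.0290); their calls were lost in 4 and 9 of 15 fits without 1 library. The median of the 25 was -0.13, beside -0.01 over all genes tested. Eng, a TGF-beta co-receptor of endothelium, stood at 0.33 (adjusted p 0.113), and the junction gene Cldn5 at -0.13 (adjusted p 0.209).

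Notch1, the receptor that restrains sprouting, rose by 0.47 in the average (adjusted p 0.0138, limma; 0.0522 without control day 3, replicate 1), the only one of 13 tested Notch and sprouting genes to pass. Icam1, the adhesion receptor for leukocytes, rose by 0.75 (adjusted p 0.0172; 0.0581 without control day 3, replicate 3), the only one of 5 adhesion genes. Rgs5, a pericyte gene, fell by 0.67 in the average (adjusted p 0.00487) and by 1.14 at day 9 (adjusted p 0.00793), where it was 31.2, 39.2 and 45.1 FPKM in irradiated against 95.1, 105.3 and 61.6 in control skin, the only one of 13 pericyte and mural genes to pass in the average. The day-9 calls of Higd1b (pericytes, -1.04), Cxcr4 (sprouting vessels and leukocytes, -1.16) and Myct1 (-0.52) were each lost in at least 5 of the 6 fits that left out 1 library. Pf4 rose by 1.22 in the average (adjusted p 0.0250, limma, lost in 5 of 15 such fits), while Itga2b stood at -0.11 (adjusted p 0.307). Which cells of the skin carried the Notch1 and Icam1 differences was not tested.

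The second question is how the genes changed after injury, from the 2 control day-0 libraries to later days. In control skin Emcn, Tie1 and Pecam1 rose at each later day, and Cdh5, Kdr and Flt4 at day 9. Emcn was 2.09 and 2.78 FPKM at day 0, 5.27 and 4.95 at day 3, 4.40 and 5.68 at day 6 and 7.21, 6.66 and 6.28 at day 9. Tie1 was 5.90 and 8.95 at day 0, 15.4 and 15.2 at day 3, 13.2 and 15.4 at day 6 and 14.4, 13.8 and 13.7 at day 9. For both genes each later control library was above both day-0 libraries. The same was true of 8 of the 10 genes at day 3, 6 at day 6 and 7 at day 9, against 45.2%, 37.7% and 40.2% of all tested genes.

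At control day 3, 3 members rose, against 25.8% of all tested genes: Tie1 by 0.98 (adjusted p 0.00676, limma), Emcn by 0.84 (adjusted p 0.00942) and Pecam1 by 0.73 (adjusted p 0.0112). The share of 3 in 10 is near that background. Cdh5 (0.76, adjusted p 0.0574), Flt4 (0.53, adjusted p 0.0634) and Kdr (0.50, adjusted p 0.0757) did not pass. At control day 6 Emcn rose by 0.81, Tie1 by 0.88 and Pecam1 by 0.55, 3 of 10 against 21.1% of all genes. At control day 9, 6 of the 10 rose, against 30.4% of all: Emcn by 1.17 (adjusted p 0.000477), Cdh5 by 0.87 (0.0177), Tie1 by 0.85 (0.00639), Flt4 by 0.72 (0.00813), Pecam1 by 0.68 (0.00746) and Kdr by 0.63 (0.0158). The median of the 10 was 0.52, 0.44 and 0.66 at days 3, 6 and 9, beside 0.16, 0.11 and 0.15 over all genes tested.

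Tek, Flt1, Vwf and Esam did not rise by the test on any day. Tek was 7.27 and 11.9 FPKM at day 0, 8.88 and 8.85 at day 3, 5.61 and 8.10 at day 6 and 7.69, 5.82 and 5.91 at day 9, and it fell by 0.47 at day 9 (adjusted p 0.0450, limma; 18% of all genes fell). That call rests on the high day-0 replicate 2: without it Tek stood at -0.16 (adjusted p 0.502). Flt1 was 2.72 and 3.01 at day 0, 3.87 and 3.67 at day 3, 2.34 and 2.68 at day 6 and 2.95, 2.40 and 3.62 at day 9. It lay above both day-0 libraries at day 3, below both at day 6 and on either side at day 9. Vwf was 2.77 and 5.46 at day 0, 5.17 and 5.83 at day 3, 5.62 and 7.62 at day 6 and 4.03, 2.78 and 4.23 at day 9, so its day-9 libraries lay within the day-0 range.

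These calls rest on 2 day-0 libraries that differ from the rest in muscle and mitochondrial RNA, as given above, and the part of that RNA was not tested. Without day-0 replicate 1, the lower library for 9 of the 10 genes, 0 members passed at control day 3, 1 (Tek, lower) at day 6 and 2 at day 9 (Emcn higher, Tek lower). Emcn at day 9 was the 1 rise that held with either day-0 library left out. With FPKM rescaled to the sum of nuclear genes, which sets the mitochondrial share aside, 1 member passed at control day 6, Tek (-0.61, adjusted p 0.0483, limma). The day-6 rises of Emcn, Tie1 and Pecam1 did not pass with that rescaling. Rescaled values of the rises at days 3 and 9 are not given here.

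**Figure D4:**
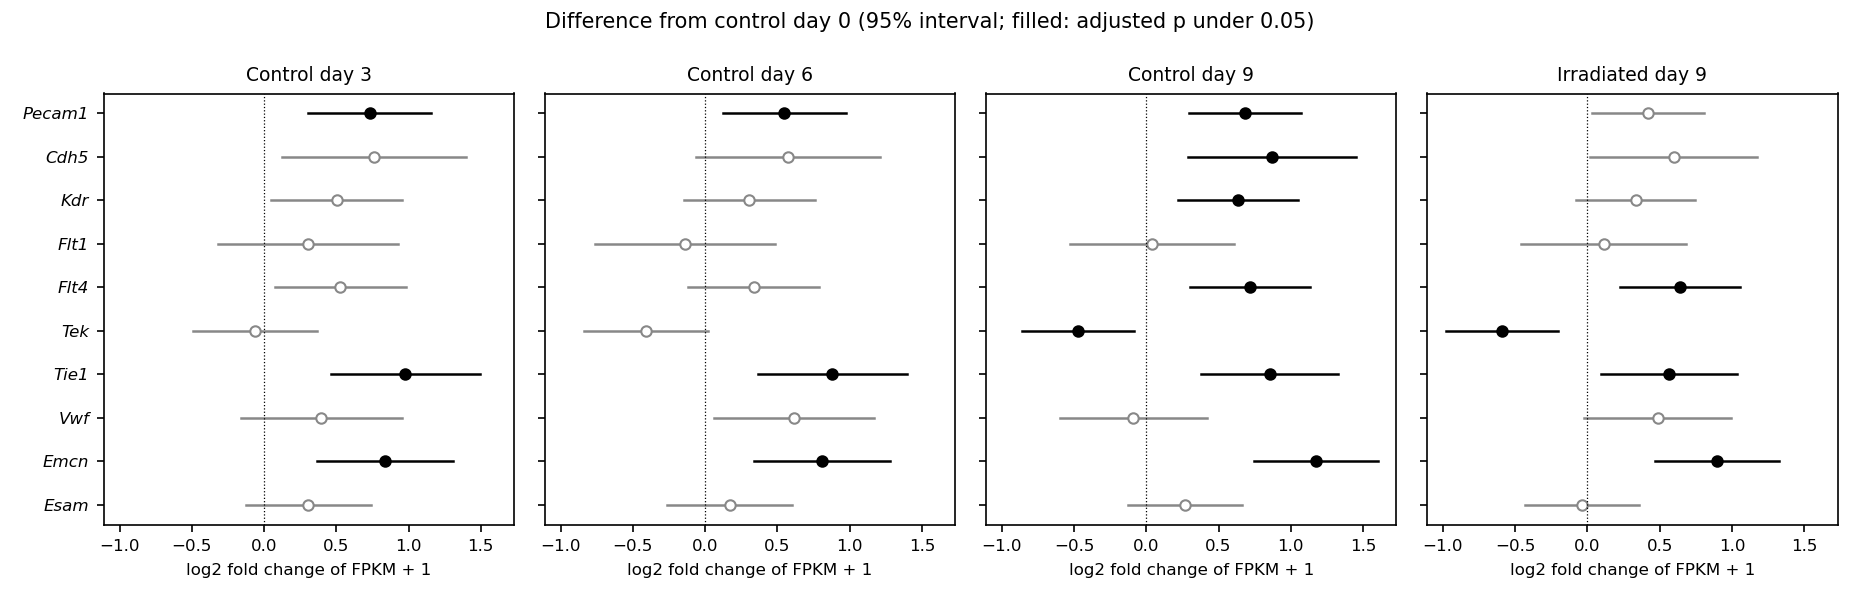
Log2 fold change of FPKM + 1 against control day 0 (horizontal axis) for the 10 genes in control skin at days 3, 6 and 9 and in irradiated skin at day 9, with 95% intervals from limma. Filled black markers have an adjusted p under 0.05: Emcn and Tie1 are filled on the right of 0 in each panel, and Tek on the left at day 9 in both arms.

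Irradiated day 9 was set against the same day-0 libraries, so it shares its controls with the comparisons above. Of the 10 genes, 3 rose, against 29.6% of all tested genes, and 1 fell, against 16.6%. Emcn stood 0.90 higher (adjusted p 0.00300, limma), Flt4 0.64 (adjusted p 0.0159) and Tie1 0.57 (adjusted p 0.0483, and 0.393 without day-0 replicate 1), and Tek 0.59 lower (log2 fold change -0.59, adjusted p 0.0178, and -0.27 with 0.236 without day-0 replicate 2). In control skin of day 9 the values of the same genes were 1.17, 0.72, 0.85 and -0.47. Without day-0 replicate 1, 2 members passed, Emcn and Tek.

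Within libraries, the 2 angiopoietin receptors changed places. The ratio of Tie1 to Tek was 0.811 and 0.755 at day 0, 1.73 and 1.72 at control day 3, 2.35 and 1.90 at day 6 and 1.88, 2.37 and 2.31 at day 9. With radiation it lay between 1.28 and 2.77 on all 3 days. All 15 later libraries were above both day-0 libraries, as were 33.7% of the ratios of other tested genes to Tek. The log2 difference in control skin was 1.37, with an exact permutation p of 0.0278, the smallest that 2 against 7 libraries allow (0.0667 after adjustment over the 12 ratios), and 1.32 or 1.42 with 1 day-0 library left out. Relative to Cdh5, Tek stood at -1.16, Flt1 at -0.70, Esam at -0.51 and Emcn at 0.46 in later control skin, each at that same smallest p (exact permutation). Flt1 to Cdh5 was 0.147 and 0.133 at day 0, 0.105 and 0.108 at control day 3 and 0.123, 0.139 and 0.128 at irradiated day 3, so the irradiated values lay between those of day 0 and control day 3 or within the day-0 range.

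From day 3 to day 9 the members did not change by the test in either arm. In control skin 0 of 10 passed, where 18.2% of all genes did, and in irradiated skin 0 of 10, where 0.963% did. At an unadjusted p under 0.05 there was 1 member in control skin and 0 in irradiated skin, and limma-voom called 0 in both. In control skin Vwf stood at -0.49 (interval -0.99 to 0.02), Tek at -0.41 (-0.80 to -0.02, adjusted p 0.129, limma) and Emcn at 0.34 (-0.09 to 0.77), with a median of -0.04 over the 10. Of 25 other endothelial genes 1 rose in control skin and of 13 Notch and sprouting genes 2 did, neither share above that of all genes: Robo4 by 0.60, Esm1 by 1.18 and Unc5b by 0.89, and of the growth factor list Nrp2 rose by 0.77. Leaving out 1 library ended the calls of Robo4 and Esm1 in each of 5 fits, of Nrp2 in 4 and of Unc5b in 2. Of 13 pericyte and mural genes 5 rose and 1 fell, among them Acta2 (1.72), Higd1b (1.60), Pdgfrb (1.18) and Des (-1.77), and of 6 secreted inhibitors of vessel growth 3 rose: Thbs2 by 2.94 (adjusted p 0.00133), Serpinf1 by 1.89 and Vash1 by 1.06. Thbs2 and Higd1b kept their calls in all 5 fits, while Pdgfrb lost its call in 4, Serpinf1 in 2 and Acta2, Des and Vash1 in 1. Each of these 5 lost it without control day 3, replicate 3 (highest adjusted p 0.177, for Pdgfrb). Over the same days 6 of 8 fibroblast genes rose, and 4 of 6 adipocyte, 2 of 8 keratinocyte and 1 of 6 skeletal muscle genes fell. Des was highest in the 2 day-0 libraries (689 and 818 FPKM), as the summed skeletal muscle markers were. The part of these cell types was not tested.

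Across the 17 libraries most of the 10 genes varied together. Pearson's r of each gene's log2(FPKM + 1) with the mean of the other 9 was 0.95 for Pecam1, 0.92 for Cdh5, 0.85 for Tie1, 0.80 for Esam and 0.77 for Emcn, 0.62 for both Flt1 and Kdr and 0.57 for Flt4. Vwf (0.27) and Tek (-0.18) did not follow the rest. These values describe 17 libraries that share days, arms and tissue makeup. Of 12328 candidate genes outside the lists, the 8 whose profile was most like the mean of the 10 were Ecscr (r 0.90), Sema7a (0.90), Adcy4 (0.89), Fam167b (0.89), Ppm1f (0.87), Vwa1 (0.87), Foxp4 (0.87) and Nek6 (0.86). Ecscr encodes a surface protein of endothelial cells and was 4.87 to 28.1 FPKM.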

How the data were processed

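Skin RNA from 17 libraries (7 groups) was sequenced with Smart-Seq2 as paired ends, per the labels' protocols, and aligned to mm10 with HISAT2 2.2.1, per the submitters' processing notes. No source used here names the counting tool. The authors deposited FPKM and no counts. With GENCODE M21 exon lengths, 90.9% of nonzero values were whole fragments within 0.01, which gave the depths (25440773 to 30797409, median 29278323).

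FPKM were analysed as log2(FPKM + 1) for genes with at least 1 FPKM in at least 2 libraries (15271), so folds of low genes are understated. limma 3.58.1 (R 4.3.3, limma-trend) fitted 1 mean per group to all libraries for 11 comparisons, with Benjamini-Hochberg adjustment and a threshold of 0.05. It was tested on simulated data. Within-library ratios were tested by exact permutation within days. limma-voom was run on the recovered fragments.

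The members, the 15 other gene lists and the tests were chosen with earlier results of these data known. Named beside the members: up to 4 passing genes a list by size of change with mean FPKM of at least 1, the best known ligands and markers in any case, and the 8 most similar profiles; red cell, keratinocyte, fibroblast, muscle and adipocyte lists are given by counts or sums, with passing genes named at irradiated day 9. In irradiated against control skin averaged over days, 0 of 8 keratinocyte, 0 of 8 fibroblast and 0 of 6 muscle genes passed, 1 of 6 adipocyte genes rose and 5 of 5 red cell genes fell. Alternatives were pseudocounts (0.1, 5), filters, scalings, array quality weights, fits without the other groups, a replicate block and each library left out; limma-voom, nuclear-total scaling and the ratios were added after seeing the data. Prox1 did not pass the filter.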

Additional observations from a re-analysis of the deposited data

Results flagged for a closer look

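Among 60 genes and ratios named in the text, those below had no overlap between irradiated and control libraries on 2 days, and in opposite directions. The share of all tested genes with such a reversal is not given here. On single days, 25.1% of all tested genes were lower with no overlap at day 3, 19.8% higher at day 6 and 17.2% lower at day 9. Differences are given as the change in log2 of the ratio of mean FPKM, irradiated over control. Esam, an endothelial adhesion molecule, was lower in every irradiated library at days 3 and 9 (10.6 to 14.1 FPKM against 15.8 and 16.1, and 10.3 to 14.7 against 15.0 to 16.5) and higher in both at day 6 (15.6 and 24.3 against 13.7 and 15.2). The difference was 0.77 from day 3 to day 6 and -0.78 from day 6 to day 9. Cldn5, the tight junction protein of endothelium, followed the same order, with 0.50 from day 3 to day 6 and -0.43 from day 6 to day 9. These differences involving day 6 were not tested, and neither gene passed on any single day. The nearest day-6 values of Cldn5 were 18.42 FPKM in a control and 18.44 in an irradiated library.

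Between days 3 and 9 the opposite order was seen in 2 genes of mural cells and 1 inhibitor of vessel growth. Irradiated libraries were higher at day 3 and lower at day 9, and the difference was -2.10 for Higd1b, -0.94 for Pdgfrb and -1.97 for Thbs2. The limma test of this difference on log2(FPKM + 1) gave adjusted p 0.190 for Higd1b, 0.325 for Pdgfrb and 0.205 for Thbs2, so none passed. Fibroblast markers had the same order, with a median log2 fold change of 0.53 at day 3 and -0.81 at day 9. Over all genes tested it was -0.04 and 0.02. Rgs5, also of the mural list, lay below the controls on both days. The part of fibroblasts in these values was not tested.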

How the results depend on the processing

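None of the 10 genes passed in irradiated against control skin under the other pseudocounts, filters and scalings, limma-voom or the fits restricted to the groups compared. Array quality weights moved the number passing from 0 to 1 at day 3, 7 at day 9, 1 for the change of the effect from day 3 to 9, 2 for control day 9 against 3 and 1 for irradiated day 9 against 3; against day 0 they left 1 at control day 6 and 2 at irradiated day 9. The fit of only the groups compared left 0 at control day 6 and 2 at irradiated day 9 and gave 1 for control day 9 against 3, and nuclear-total scaling left 1 at control day 6. Shares of all tested genes under these settings are not given here, so the counts describe the members alone. The cause of these moves was not tested.

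With 1 library left out, the number passing ranged from 0 to 1 at day 6 and in the average over days, 0 to 4 at control day 3, 1 to 3 at control day 6, 2 to 7 at control day 9 and 2 to 4 at irradiated day 9. The lone sample of a group reduced to 1 library is then assumed to vary like the others. Differences near 0 changed sign: in the average, Esam ranged from -0.17 to 0.036, Pecam1 from -0.16 to 0.037, Cdh5 from -0.17 to 0.15 and Nrp2 from -0.14 to 0.051, and the ratio of Tie1 to Tek between the arms from -0.26 to 0.043. Of 1682 values of single genes and ratios under alternatives, 1454 kept their direction and their side of the threshold, 189 no longer passed, 27 newly passed and 12 changed sign, none of them a value that had passed.

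The labels state no pairing, so their replicate numbers were not taken as pairs. Deviations from the group mean in same-numbered libraries of a day had r from -0.12 to 0.30, highest for replicate 2 of day 9. In a group of 2 libraries the deviations mirror each other, so these values cannot exclude pairing. With a replicate block the numbers passing stayed at 0 in irradiated against control skin, and Cdh5 stood at 0.00049 in the average instead of -0.01; against day 0 they were 3, 3, 6 and 3 at control days 3, 6 and 9 and irradiated day 9, with no block 3, 3, 7 and 4. With 2 or 3 libraries a group, a difference that did not pass does not show that there was no change. The intervals given show how uncertain each estimate is.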
